A study of Mus musculus with 8 samples.

Results

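Dclk1 and 8 related genes were followed across mouse pancreatic cancer cells that overexpressed 1 of 2 forms of the deubiquitinating enzyme USP21: the doublecortin-like kinases Dclk1 and Dclk2, the doublecortin gene Dcx, and the tuft cell genes Pou2f3, Trpm5, Gfi1b, Avil, Alox5 and Il25. They were taken by gene symbol, 9 of the 39179 genes in the deposited counts, and all 9 were found. The set was built around Dclk1, which had been selected on its higher level with WT-USP21 in these same libraries, so the differences between constructs given for the 9 genes are descriptions and not tests. Dclk1 RNA exceeded its ED-USP21 level by 2.65-fold to 3.77-fold in all 4 lines with WT-USP21. Of the tuft cell genes, Gfi1b and Il25 had no read in any of the 8 libraries, Pou2f3 had 12 reads in all, and Trpm5 and Alox5 had under 60 reads in each library. Avil was abundant, and its level with WT-USP21 was higher in line 1 and lower in lines 2, 3 and 4.

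The 8 RNA sequencing libraries came from 4 cell lines of the iKPC mouse model of pancreatic ductal adenocarcinoma, each line with WT-USP21 and with ED-USP21. The labels do not spell out ED. The genotype listed for both groups held a tetracycline-controlled transgene, ROSA_rtTA, the transactivator that drives it when doxycycline is given, and p48-Cre, a Cre recombinase expressed under a pancreatic promoter. The transgene, rtTA and Cre were therefore shared by the WT-USP21 and ED-USP21 libraries, which differed in the construct. By strain background, lines 1 and 2 were labelled FVB/C57Bl6, while lines 3 and 4 were labelled C57BL/6. The doxycycline state of the cultures and the age of the source animals are not given in the sources used here, and cells without a construct were not analysed here. The series takes the 4 lines as its biological replicates, so p-values rest on these lines only. In fits within lines, the interaction included, they weigh a construct difference against its variation from line to line. In the other fits they weigh a difference against the spread of levels between lines.

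Tuft cells are rare chemosensory epithelial cells of the gut, airway and ducts. Their identity rests on the transcription factor Pou2f3, they signal through a taste-like cascade that ends in the channel Trpm5, and they make interleukin 25 and leukotrienes, which reach type 2 immune cells. DCLK1, a kinase with doublecortin domains that bind microtubules, is a common marker of mouse tuft cells, but neurons also express it, and in the pancreas it has been used to mark cells with progenitor features. In pancreatic ductal lesions of the mouse, tuft cells appear during acinar-to-ductal change and are scarce in advanced carcinoma.

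The libraries held between 72828184 and 107551210 gene counts. Levels are given in CPM, reads of a gene scaled to a common library total after TMM, a correction of the totals for composition. Usp21 stood between 147 and 944 CPM with WT-USP21 and between 1658 and 3133 CPM with ED-USP21. The amount of Usp21 RNA thus also differed between the groups. With WT-USP21, line 1 had 147 CPM, against 539 to 944 CPM in lines 2 to 4. The ratio of WT-USP21 to ED-USP21 was 0.0885 in line 1 and 0.301 to 0.346 in lines 2 to 4. The part of Usp21 RNA in the differences below was not tested. The keratins of duct cells were abundant (Krt18 at 3134 CPM and Krt8 at 2781 CPM on average), while Epcam, a surface protein of epithelial cells, stood at 5.35 and 3.40 CPM in line 1 and at 0.0645 to 0.314 CPM in lines 2 to 4. Line 1 stood apart from the other lines for several of the 9 genes, so values without it are given beside the tested comparisons. The libraries of lines 2 and 4 were the most alike within both constructs.

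The promoters of the kinase genes are shown because Dclk1 and Dclk2 moved together in lines 2, 3 and 4. The RefSeq promoter table (build GRCm38.p6; 250 bases before to 50 after a start site) held 9 promoters for 7 of the 9 genes. Pou2f3 and Il25 were not matched. A search on both strands looked for 4 TCF/LEF forms, CTTTG followed by AA, AT, TA or TT, which Wnt-responsive genes often carry, and for the octamer ATGCAAAT, which POU factors bind. These motifs do not overlap one another. The sequences run 5′ to 3′ on the gene's strand, with matches in capitals: Dclk1 has 2 listed start sites, at chr3:55242114-55242413 (+) and chr3:55461478-55461777 (+), and Dclk2 has 1, at chr3:86920835-86921134 (-).
Dclk1 start site 1: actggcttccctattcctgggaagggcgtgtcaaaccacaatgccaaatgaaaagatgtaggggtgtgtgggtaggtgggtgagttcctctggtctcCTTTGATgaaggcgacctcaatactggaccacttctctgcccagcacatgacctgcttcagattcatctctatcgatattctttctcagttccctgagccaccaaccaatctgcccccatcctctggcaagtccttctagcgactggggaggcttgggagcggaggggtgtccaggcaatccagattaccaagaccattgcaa
Dclk1 start site 2: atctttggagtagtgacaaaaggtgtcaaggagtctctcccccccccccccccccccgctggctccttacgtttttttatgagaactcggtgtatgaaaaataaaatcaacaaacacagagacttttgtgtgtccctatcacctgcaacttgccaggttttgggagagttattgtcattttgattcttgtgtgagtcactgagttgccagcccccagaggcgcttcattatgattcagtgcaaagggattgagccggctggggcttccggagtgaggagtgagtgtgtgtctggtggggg
Dclk2 start site 1: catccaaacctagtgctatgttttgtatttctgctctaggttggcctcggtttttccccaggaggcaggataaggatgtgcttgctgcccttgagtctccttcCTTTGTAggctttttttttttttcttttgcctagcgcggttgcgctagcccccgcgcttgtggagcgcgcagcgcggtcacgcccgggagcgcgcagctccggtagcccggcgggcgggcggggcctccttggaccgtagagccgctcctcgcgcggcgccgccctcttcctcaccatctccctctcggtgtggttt

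The upstream Dclk1 promoter held CTTTGAT beginning 153 bases before the start, the downstream Dclk1 promoter held none of the TCF/LEF forms, and the Dclk2 promoter held CTTTGTA 147 bases before the start. One of the 2 Dcx promoters also held a form, CTTTGTT on the opposite strand, and the promoters of Gfi1b, Trpm5, Avil and Alox5 held none. Over all 32851 promoters of the table, 16.9% held at least 1 of the TCF/LEF forms. The octamer was in 0 of the 9 promoters and in 1.74% of all. The Dclk2 promoter was the richest of the 3 in CpG, with 27 CpG and 61.3% GC, against 5 and 6 CpG and 52.7% and 50.3% GC in the Dclk1 promoters and medians of 7 CpG and 52.7% GC over all promoters. The deposited counts are per gene, so reads from the start sites of Dclk1 cannot be told apart.

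Among the 9 genes, Avil had the highest level per length of exon, at 74.4 ± 16.5 CPM per kilobase (SD, n = 8 libraries). Dclk1 followed with 2.31 ± 2.09 CPM per kilobase, ranging from 0.588 CPM in ED-USP21 line 1 to 88.4 CPM in WT-USP21 line 3 before division by length. Dclk2 stood at 0.144 ± 0.0916 CPM per kilobase. Trpm5 at 0.0724 ± 0.0314 and Alox5 at 0.0707 ± 0.0290 CPM per kilobase did not differ beyond their spread, and the range of Dclk2 overlapped both. Pou2f3 stood at 0.00597 CPM per kilobase on average. By reads over all libraries, 98.2% of the genes in the files had no more reads than Avil, 85.5% no more than Dclk1, 70.1% no more than Dclk2, 65.3% no more than Trpm5, 63.2% no more than Alox5 and 48.5% no more than Pou2f3. For 33.6% of the genes, Gfi1b and Il25 among them, no read was counted in any library.

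**Figure D1:**
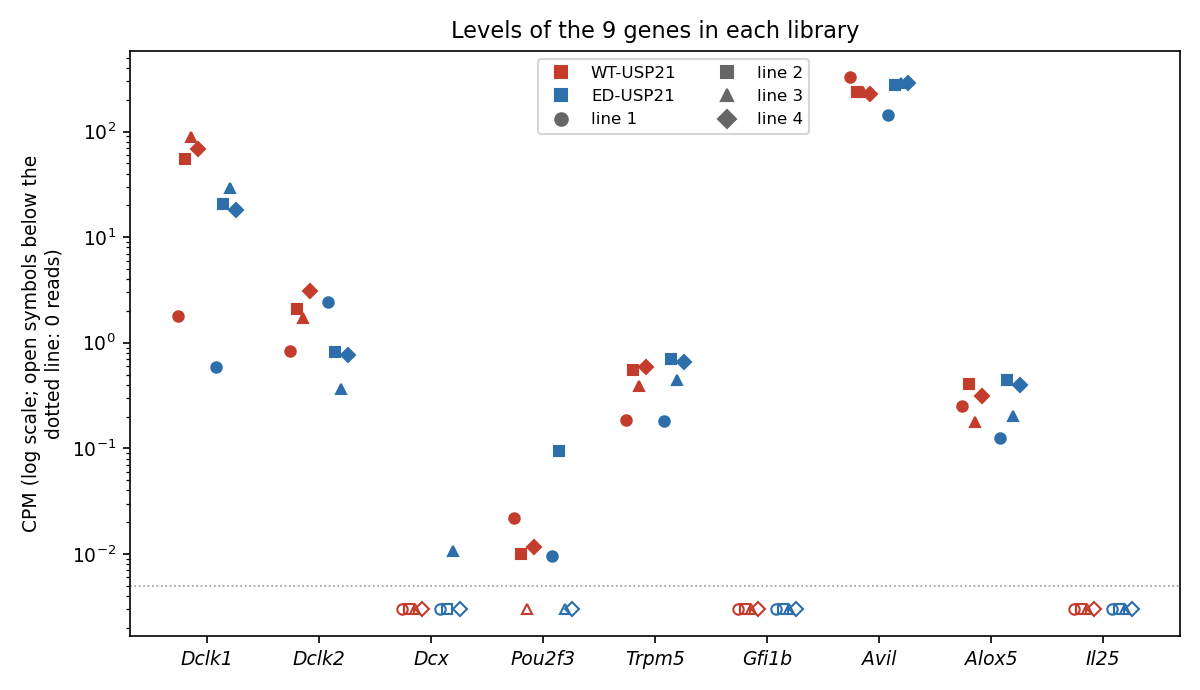
Level of each of the 9 genes in each library, in CPM on a log axis; red symbols are WT-USP21 and blue symbols ED-USP21 libraries, the symbol shape gives the line, and open symbols below the dotted line stand for 0 reads. Dclk1 spans 0.588 to 88.4 CPM with line 1 lowest under both constructs, while Gfi1b and Il25 have only open symbols.

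Dclk1 (ENSMUSG00000027797) encodes the doublecortin-like kinase used as the tuft cell marker. With WT-USP21 it had 165, 5498, 8421 and 5916 reads in lines 1 to 4, which is 1.79, 54.6, 88.4 and 68.7 CPM. With ED-USP21 it had 61, 1523, 2742 and 1415 reads, which is 0.588, 20.6, 29.5 and 18.2 CPM. Within each line the WT-USP21 library was the higher, but the groups overlapped across lines, because WT-USP21 line 1 lay below ED-USP21 lines 2 to 4. In line 1 the ratio was 3.05 (exact 95% binomial interval 2.26 to 4.17), and in lines 2, 3 and 4 it was 2.65 (2.51 to 2.81), 2.997 (2.87 to 3.13) and 3.77 (3.559 to 3.9997). These intervals cover counting error only. The log2 differences of the 4 lines had a mean of 1.62 ± 0.21 (SD, n = 4), so the lines resembled one another in the size of the difference although their levels were far apart.

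The level of Dclk1 itself depended on the line. With WT-USP21 it averaged 70.5 ± 16.97 CPM in lines 2 to 4 (SD, n = 3), 39.3-fold above line 1, and with ED-USP21 it averaged 22.8 ± 5.94 CPM, 38.7-fold above line 1. Levels were compared between the background labels on counts summed per line, lines 3 and 4 against lines 1 and 2, a comparison that did not choose the genes. Dclk1 did not pass (log2 1.33, SE 1.42, edgeR quasi-likelihood adjusted p = 0.995), nor did the other 4 testable genes, and there were 0 calls among 17897 genes (0%). Unadjusted p-values under 0.05 numbered 162, and DESeq2 made 7 calls. With line 2 left out, line 1 alone stood against lines 3 and 4, and Dclk1 passed at log2 5.46 (SE 0.25, edgeR adjusted p = 3.35e-07; range over all settings 3.35e-07 to 0.99998). That fit rests on the spread between 2 lines and called 24.4% of the genes tested. Without line 1, where line 2 alone stood against lines 3 and 4, Dclk1 did not pass (log2 0.37, SE 0.18, edgeR adjusted p = 0.99996). Dclk2, Trpm5, Avil and Alox5 passed in neither of these fits.

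Dclk2 (ENSMUSG00000028078) encodes the closest relative of DCLK1, also a microtubule-binding kinase. It had 76, 210, 165 and 267 reads with WT-USP21 in lines 1 to 4, or 0.826, 2.08, 1.73 and 3.10 CPM. With ED-USP21 it had 252, 61, 34 and 60 reads, or 2.43, 0.824, 0.366 and 0.772 CPM. The WT-USP21 library was the higher in lines 2, 3 and 4, and in line 1 the ED-USP21 library was the higher by 2.94-fold. The ratios in lines 2 to 4 were 2.53 (exact 95% interval 1.89 to 3.42), 4.74 (3.26 to 7.07) and 4.01 (3.02 to 5.405), and in line 1 the ratio was 0.340 (0.260 to 0.442). Dclk1 and Dclk2 thus differed in the same direction in lines 2 to 4 and in opposite directions in line 1. Among all 16192 genes tested, 10.6% were lower with WT-USP21 in line 1 and higher in lines 2 to 4, as Dclk2 was.

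Dcx, the doublecortin of migrating neurons, had 1 read in all 8 libraries, in ED-USP21 line 3. Of 7 other genes with doublecortin domains, 5 had at most 20 reads over all libraries and 2 could be tested. Neither was called, and the more abundant, Dcdc2b, stood at 1.11 CPM with WT-USP21 and 0.985 CPM with ED-USP21. Of 16 neuronal genes 9 could be tested, with a median log2 difference of 0.28 within lines against a median of -0.0044 over all genes tested. By edgeR within lines 0 of the 9 were called, beside 0.0247% of all genes tested. Dpysl3, a protein of growing axons, differed by 0.82 on the log2 scale (SE 0.24, edgeR adjusted p = 0.433). It was the 1 neuronal gene called by DESeq2 within lines, beside 2.51% of all genes tested. Without line 1, edgeR called 2 of the 9, Dpysl3 (log2 1.14) and Nes (0.77), the gene of the intermediate filament nestin, beside 4.57% of all genes. Tubb3, a neuronal tubulin, and Map2, a microtubule-associated protein, had log2 differences of 0.28 and -0.32 within lines.

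Pou2f3, the transcription factor on which tuft cells depend, had 2, 1, 0 and 1 reads with WT-USP21 in lines 1 to 4. With ED-USP21 it had 1, 7, 0 and 0 reads. That is 4 reads against 8, a ratio of 0.466 with an exact 95% interval of 0.103 to 1.74, and line 2 alone gave 7 of the 8 ED-USP21 reads. Without line 2 the ratio was 3.01. The interval of the summed reads included equal levels. In line 2 alone, 1 read against 7 gave a ratio of 0.105 (exact 95% interval 0.00233 to 0.817). These intervals cover counting error only.

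Gfi1b, a zinc finger repressor that marks tuft cells and also megakaryocytes, had 0 reads in every library. Il25, the cytokine by which tuft cells reach type 2 lymphoid cells, had 0 reads as well. At 3 counts over a group, 0 reads allow a level of up to 0.00802 CPM with WT-USP21 and 0.00861 CPM with ED-USP21. Both limits lie more than 1000-fold below the mean CPM of Dclk1 in either group, without division by length. The exons of Dclk1 span 15296 bases, against 1830 for Gfi1b and 1064 for Il25, so per kilobase the gap is smaller. The gap is also smaller in line 1, where Dclk1 stood at 1.79 CPM with WT-USP21 and 0.588 CPM with ED-USP21.

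Trpm5 (ENSMUSG00000009246), the cation channel at the end of the taste-like cascade, had 17, 56, 37 and 51 reads with WT-USP21 in lines 1 to 4. With ED-USP21 it had 19, 52, 41 and 51 reads. The groups overlapped throughout, and the summed reads were 161 against 163, a ratio of 0.920 (exact 95% interval 0.735 to 1.15). The log2 differences of the lines were 0.01, -0.33, -0.17 and -0.14. Line 1 had the lowest level under both constructs, 0.185 and 0.183 CPM, against 0.388 to 0.702 CPM in lines 2 to 4. In the GENCODE M21 annotation 3.44% of the exonic bases of Trpm5 overlap Tssc4 on the opposite strand, which had 1563 to 2801 reads, and without a stated strand setting their reads cannot be told apart.

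Alox5 (ENSMUSG00000025701), the lipoxygenase that starts leukotriene synthesis, had 23, 41, 17 and 27 reads with WT-USP21 in lines 1 to 4. With ED-USP21 it had 13, 33, 19 and 31 reads. The sums were 108 against 96, a ratio of 1.05 (exact 95% interval 0.789 to 1.39). Line 1 had the higher count with WT-USP21 (log2 difference 0.89) and the other lines lay between -0.33 and -0.12. The interval of the line 1 ratio, 1.997, ran from 0.970 to 4.29 and included equal levels.

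Avil (ENSMUSG00000025432) encodes advillin, an actin-bundling protein of the tuft cell's apical tip that sensory neurons also make. With WT-USP21 it stood at 326, 236, 237 and 228 CPM in lines 1 to 4. With ED-USP21 it stood at 143, 276, 291 and 287 CPM. Line 1 was the highest of the WT-USP21 libraries and the lowest of the ED-USP21 libraries, while lines 2 to 4 were close to one another within a construct and lower with WT-USP21 than with ED-USP21. The log2 differences were 1.19, -0.23, -0.30 and -0.34. Of all genes tested, 12.5% were higher in line 1 and lower in lines 2 to 4, as Avil, Alox5 and Trpm5 were. For Alox5 and Trpm5 the interval of the line 1 ratio included equal levels. Avil was thus abundant in libraries in which Pou2f3 had 0 to 7 reads. Its exons overlap those of Tsfm on the opposite strand over 4.86% of their length, and Tsfm had 2255 to 3583 reads.

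**Figure D2:**
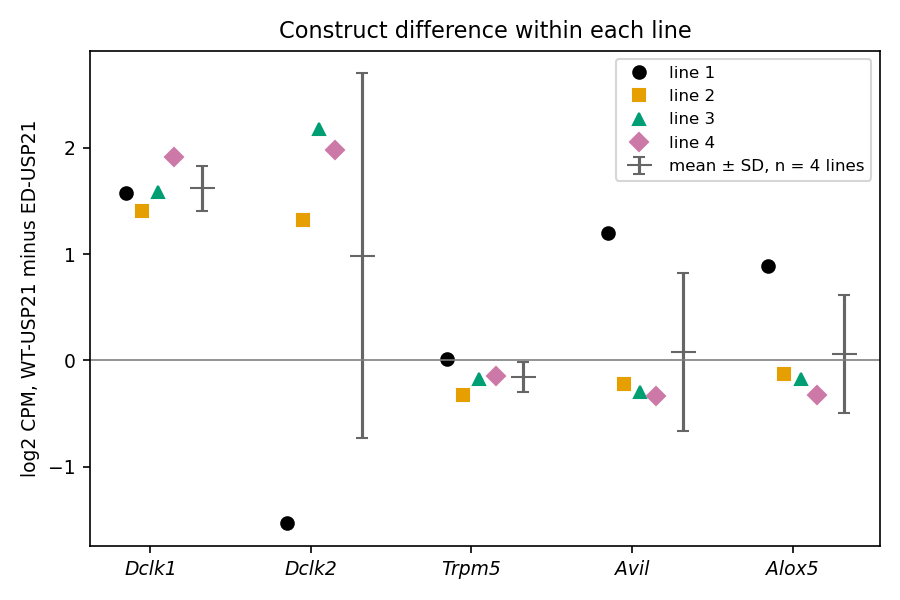
Difference in log2 CPM (prior count 2), WT-USP21 minus ED-USP21, within each line for the 5 genes with enough reads to test; coloured symbols are single lines and the grey bar is the mean ± SD of the 4 lines. The points of Dclk1 lie between 1.41 and 1.91. Line 1 is on the other side of 0 from lines 2 to 4 for Dclk2, Avil, Alox5 and, at only 0.01, Trpm5.

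For the construct comparison across all genes, 5 of the 9 genes passed the filter on low counts: Dclk1, Dclk2, Trpm5, Avil and Alox5. Compared 4 against 4 without the line, edgeR made 0 calls among 16192 genes (0%). An unadjusted p under 0.05 was reached by 392 genes. By DESeq2 there were 60 calls, and by limma-trend 3. Within lines, edgeR called 4 genes (0.0247%), of which Dclk1 was 1 (log2 1.63, SE 0.10). This is the comparison Dclk1 was selected on, and nothing is read from it here. The other genes had log2 differences of 1.09 (SE 0.68) for Dclk2, 0.07 (SE 0.27) for Avil, 0.06 (SE 0.35) for Alox5 and -0.17 (SE 0.25) for Trpm5, and none was called. DESeq2 within lines called 2.51% of the genes, and of the 9 only Dclk1. Leaving out line 2, 3 or 4, or asking for a mean of 5 CPM, ended the call of Dclk1, whose log2 difference stayed between 1.52 and 1.71.

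Without line 1, edgeR within lines called 3 of the 5 genes, against 4.57% of all genes tested: Dclk1 (log2 1.64, SE 0.10) and Dclk2 (1.86, SE 0.26) higher, and Avil lower (-0.28, SE 0.06). These too come from the libraries that chose the set. By direction alone, 9.02% of all genes tested were higher with WT-USP21 in 4 of 4 lines. Dclk1 was the only one of the 5 among them, and also the only one at least 2-fold higher in 4 of 4 lines, as were 0.272% of all genes tested.

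An interaction term asked if the difference between constructs varied with background, lines 3 and 4 against lines 1 and 2, which played no part in the choice of genes. For Dclk1 the interaction was 0.27 (log2, SE 0.18, edgeR adjusted p = 0.990). Dclk2 had 2.24 (SE 1.04, adjusted p = 0.990) and Avil -0.80 (SE 0.46, adjusted p = 0.990). None of the 5 genes passed, and there were 0 calls among 16192 genes (0%). Unadjusted p-values under 0.05 numbered 375, and DESeq2 made 7 calls. Without line 1 the interaction was 0.78 (SE 0.51) for Dclk2, -0.09 (SE 0.12) for Avil and 0.34 (SE 0.18) for Dclk1, with edgeR adjusted p-values of 0.9998. Without line 2, where line 1 alone stood against lines 3 and 4, it was 3.67 (SE 0.53) for Dclk2 and -1.51 (SE 0.12) for Avil. Their adjusted p-values of 0.0709 and 0.0682 still missed the threshold, and over all settings the values ran up to 1 for both genes.

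Beyond the 9 genes, 46 other tuft cell genes were listed, and 43 were in the files. Of these, 7 had 0 reads in every library, 15 had at most 20 reads, and 21 could be tested. In the tested genes the median log2 difference within lines was 0.04, against -0.0044 over all genes tested. Of the 21, 11 were positive, as were 7888 of all 16192 genes tested. By edgeR within lines 0 of the 21 were called, beside 0.0247% of all genes tested. With so few calls over all genes, the 0 says little about this list. The medians by line were 0.24, 0.04, 0.01 and 0.06 in lines 1 to 4. Of the 21, 5 were higher with WT-USP21 in 4 of 4 lines (23.8%, against 9.02% of all genes tested) and 1 was lower in 4 of 4, Il13ra1. Without line 1, edgeR called 1 of 20 higher and 0 lower, beside 4.57% of all genes called in either direction. DESeq2 within lines called 3 of 21 higher and 0 lower, beside 2.51% of all genes.

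Plcg2, a phospholipase of tuft cells and of B cells, was the gene called without line 1 and 1 of the 3 called by DESeq2. Plcg2 stood at 6.05 ± 1.71 CPM with WT-USP21 and 2.87 ± 0.165 CPM with ED-USP21 (SD, n = 4 each). In each of the 4 lines the WT-USP21 library was the higher. Its log2 difference of 1.03 (SE 0.18) did not pass in edgeR within lines (adjusted p = 0.213), passed without line 1 (1.18, adjusted p = 0.0177), and passed in DESeq2 (adjusted p = 4.91e-05). Sox4, a transcription factor needed for tuft cells but common in carcinoma cells, stood 0.40 higher on the log2 scale with WT-USP21 (SE 0.10), and Runx1, a factor of blood and epithelial progenitors, 0.28 higher (SE 0.07), with edgeR adjusted p-values of 0.370 and 0.313. Both were higher in 4 of 4 lines and were called by DESeq2 only. None of these 3 is restricted to tuft cells.

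The other tuft cell genes named by the rule did not pass by edgeR. Itpr3, the calcium channel of the taste-like cascade that other epithelia also make, stood at 563 CPM with WT-USP21 and 548 with ED-USP21 (log2 0.04). Il4ra, a receptor chain for interleukins 4 and 13, had a log2 difference of -0.14 and its partner Il13ra1 of -0.12. Matk, a kinase, had -0.30, and Rgs2, a regulator of G protein signalling, 0.54, with a difference of 1.74 in line 1 and 0.19 in the fit without that line. Levels within the taste-like cascade and the eicosanoid enzymes were uneven, and the genes that follow were picked out after their counts were seen. Sh2d6 had 4 reads over the 8 libraries, Plcb2, the phospholipase of the cascade, had 1, and Chat and Gnat3, the enzyme of acetylcholine synthesis and the taste G protein gustducin, had none. The G protein subunits Gnb3 and Gng13 had 233 and 184 reads, and Tas1r3, a taste receptor chain, had 2785. Of the prostaglandin enzymes, Ptgs1 had 20800 reads, 28.1 CPM on average, and Hpgds had 509. None of the last 5 genes was called.

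**Figure D3:**
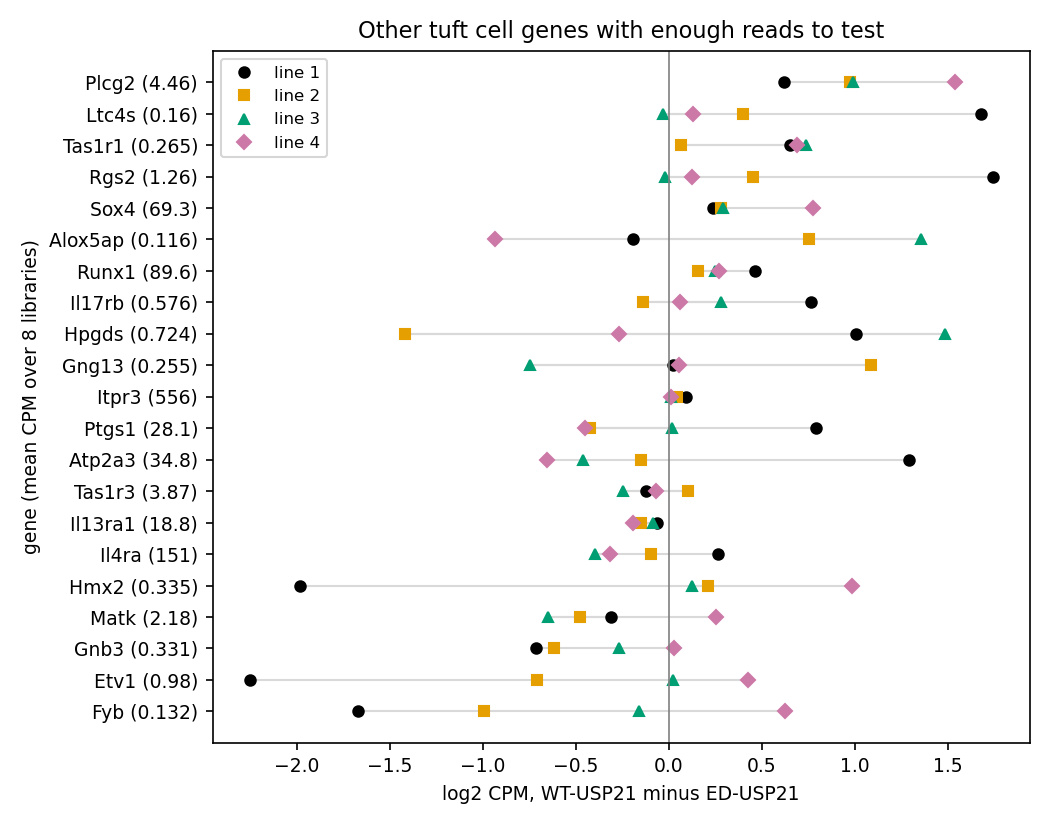
Difference in log2 CPM, WT-USP21 minus ED-USP21, in each line for the 21 other tuft cell genes with enough reads to test, ordered by their difference within lines; symbols are lines and the number after a gene is its mean CPM over the 8 libraries. Plcg2 lies highest with all 4 lines above 0, and the points of low genes such as Hmx2 and Etv1 spread over both sides.

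The leukotriene pathway and the receptors for tuft cell signals were described in the same way. Of 10 other leukotriene genes 6 could be tested, with a median log2 difference of 0.10. By edgeR within lines 0 of these were called, beside 0.0247% of all genes tested. Pla2g4a, which frees arachidonic acid, and Lta4h, which makes leukotriene B, were abundant with log2 differences of 0.14 and 0.06. Alox5ap, the partner of ALOX5, had 50 reads with WT-USP21 against 37, and Ltc4s, the leukotriene C synthase, 69 against 44. Cysltr1, a receptor for cysteinyl leukotrienes, had 135 reads against 235, lower with WT-USP21 in 4 of 4 lines, and was not called (log2 -1.13, SE 0.29, edgeR adjusted p = 0.365). Gpx4, a peroxidase of lipid peroxides, had a log2 difference of -0.13. Of 8 genes of the interleukin 25 and type 2 receptors 6 could be tested, with a median of 0.0006 and 0 called in the same fit. The interleukin 25 receptor chain Il17ra stood at 29.7 CPM with WT-USP21 and 30.2 CPM with ED-USP21, and its partner Il17rb had 228 reads against 181. Traf3ip2, the adaptor of these receptors, had a log2 difference of 0.04.

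Markers of other cells in which these genes can be expressed were uneven in level. The neuronal list held abundant genes, Nes at 142, Dpysl3 at 80.6 and Ncam1, an adhesion protein, at 72.3 CPM on average, and also 2 genes with 0 reads and 5 with at most 20. Of 15 enteroendocrine and neuroendocrine genes, 6 had 0 reads and 10 had at most 20, and their summed level was 0.750 to 4.09 CPM with WT-USP21 and 0.742 to 4.42 CPM with ED-USP21. Leukocyte and mast cell markers, which can carry Alox5, summed to 6.26 to 13.5 and 5.21 to 16.6 CPM over 13 genes, most of it Cd68, a lysosomal protein also made by other cells, at 10.8 CPM on average, above Trpm5 at 0.463 and Alox5 at 0.290 CPM. Ptprc, the pan-leukocyte gene, averaged 0.0886 and 0.188 CPM. Megakaryocyte and erythroid markers (8 genes) summed to 1.82 to 3.62 and 2.03 to 2.98 CPM, with Itga2b the highest named. In these last 3 lists only 4, 3 and 3 genes could be tested, with 0 called by edgeR within lines and 0 by DESeq2. Over all genes tested the shares called were 0.0247% and 2.51%, so 0 calls in so few genes say little. The part of such cells in the reads of the 9 genes was not tested, and in these bulk libraries fewer cells of a type and less RNA per cell cannot be told apart.

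The duct cell list stood far above these, at 7804 to 13497 CPM with WT-USP21 and 8353 to 11249 CPM with ED-USP21 over 10 genes. Of these, 9 were tested and 0 called by edgeR within lines, beside 0.0247% of all genes tested. Without line 1, edgeR called Krt19 (log2 -0.58) and Muc1 (-0.57) lower, beside 337 of all 16326 genes tested. Acinar markers had 4 of 9 genes at 0, with the digestive enzyme gene Cela1 at 6.10 and 6.93 CPM as the most abundant. Fibroblast markers had 3 of 8 at 0, with 0 called and a median log2 difference of 1.04 over the 4 tested. Their medians by line were -0.24, 0.04, 0.33 and 4.16 in lines 1 to 4, so the lines differed widely. In line 4, Col1a2, a collagen chain, had 459 reads with WT-USP21, against 0 to 94 in the other WT-USP21 libraries.

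**Figure D4:**
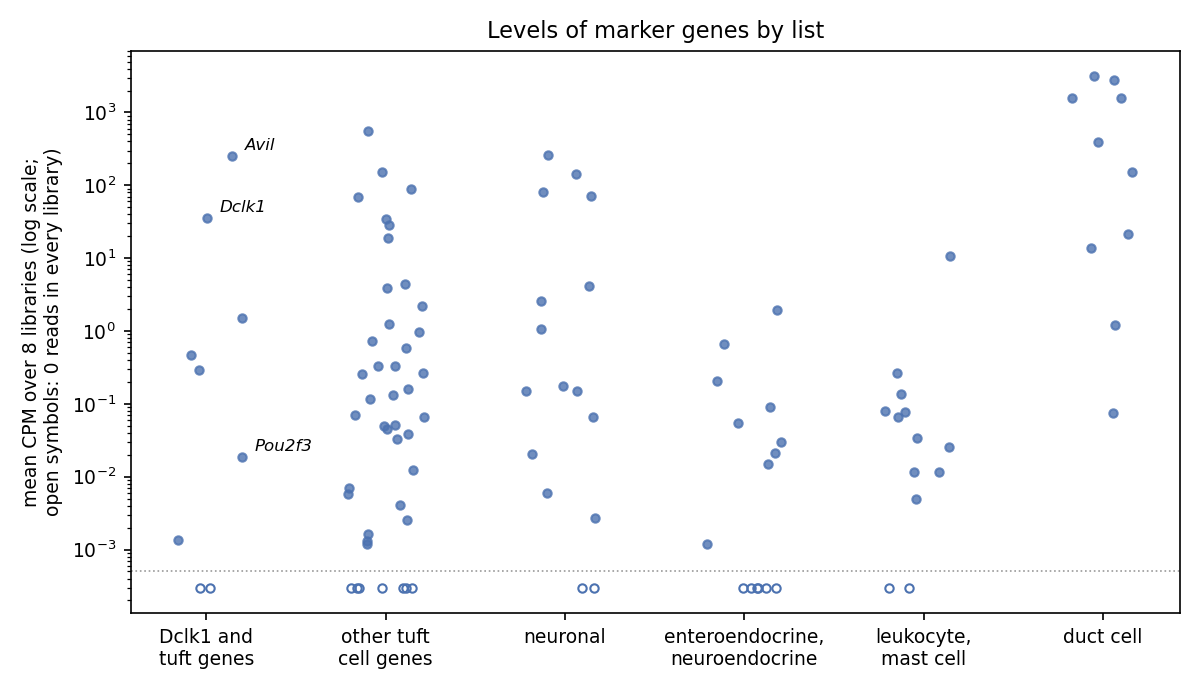
Mean CPM over the 8 libraries, on a log axis, of every gene in 6 lists; each filled point is a gene and open points are genes with 0 reads in every library. Avil and Dclk1 lie among the higher points of their list, Pou2f3 lies at 0.0184 CPM, and the duct cell markers reach above 1000 CPM.

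The genes whose pattern was nearest to Dclk1 were ranked by the root mean square difference of log2 CPM over the 8 libraries, after each gene was centred on its own mean, among 12319 other tested genes with at least 1 CPM on average. The nearest were P2ry1, a receptor for ADP, at 0.36, then Pygl, the liver glycogen phosphorylase, at 0.43, Gpr176, an orphan receptor, at 0.51, Bmp6, a bone morphogenetic protein, at 0.51, and Bend7 at 0.52, against a median of 2.44. P2ry1 stood at 2.07, 44.8, 47.3 and 50.6 CPM with WT-USP21 and at 0.453, 24.4, 28.2 and 19.9 CPM with ED-USP21 in lines 1 to 4. All 5 genes were lowest in line 1 under both constructs and higher with WT-USP21 in each line. This follows in large part from their choice by likeness to Dclk1 in these same libraries. In line 1 some rest on few reads, as Pygl at 0.0978 CPM with WT-USP21 and 0.0385 CPM with ED-USP21. Avil, at 2.32, ranked 3370, and Dclk2, at 2.57, ranked 9335, so neither was among the genes near Dclk1. The measure weighs the gap between line 1 and the other lines most, because it is the largest difference in these profiles, and the points share their libraries and lines.

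**Figure D5:**
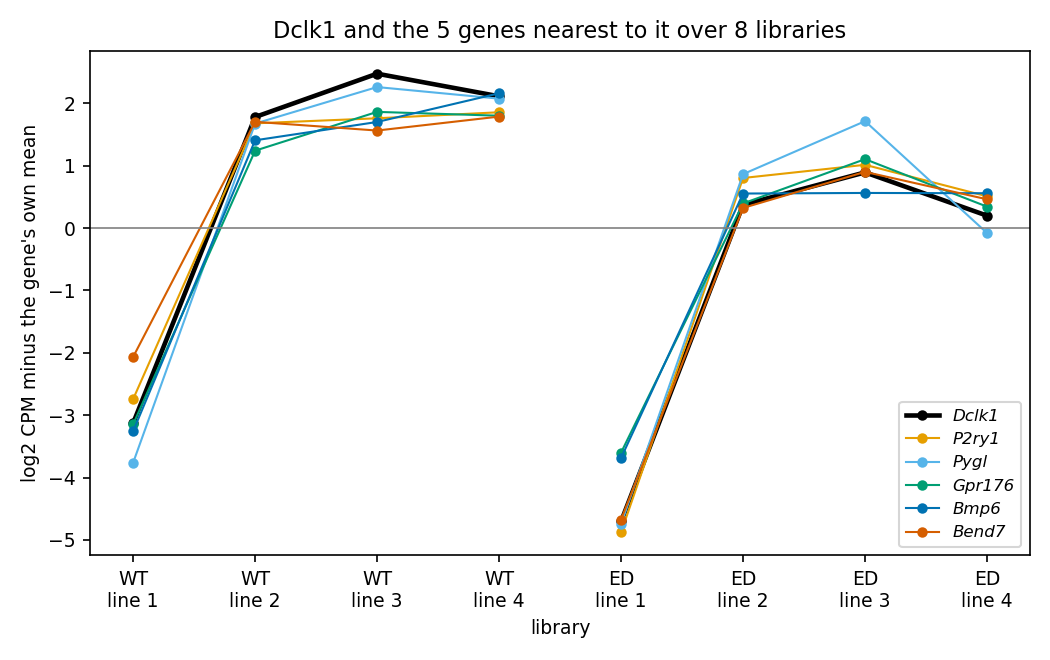
log2 CPM minus each gene's own mean over the 8 libraries (prior count 2) for Dclk1 (black) and the 5 genes nearest to it; the x axis gives the WT-USP21 and then the ED-USP21 library of lines 1 to 4. All 6 genes are far below 0 in line 1 and above 0 in lines 2 to 4 with WT-USP21.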

How the data were processed

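RNA was measured by sequencing of total RNA in 8 libraries, 4 lines with 2 constructs. The deposited values are raw gene counts, whole numbers without scaling. The submitters' processing notes name the build mm9 and the tools HTSeq, STAR, TopHat, Cufflinks and CASAVA. For these tools, versions and roles are not given in the sources used here, nor is the strand setting. Reads outside genes made up 11.4% to 20.6% of a library and were left out of totals and tests.

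Counts were scaled by TMM and tested with edgeR 4.0.16 (quasi-likelihood, filterByExpr for low counts) under R 4.3.3, with Benjamini-Hochberg adjustment over all genes tested and calls at an adjusted p under 0.05. Differences are WT-USP21 minus ED-USP21. DESeq2 1.42.0 and limma 3.58.1 (limma-trend) were alternatives, with other scalings, filters and each line left out. The 9 genes and the 11 other lists were chosen with earlier results of these data known. From each list, up to 4 genes (8 for tuft cell genes) with a mean of at least 1 CPM and the smallest p within lines were named; Cysltr1, Alox5ap, Ltc4s, Il17rb, Ptprc, Ncam1, Krt18, Muc1, the low or picked tuft cell genes and those in the closing section fall outside this rule and were chosen after their values were seen. The code was tested on simulated data. log2 CPM used a prior count of 2, and intervals of read ratios are exact binomial at 95%. Per the labels, equal numbers mark 1 cell line, which pairs the libraries. Their deviations from the group means correlated across genes at 0.770, 0.503, 0.468 and 0.347 in lines 1 to 4. Pairs across lines 2 and 4 reached 0.430 and 0.364, so the check does not single out line 4, whose pairing rests on the labels. Exonic lengths and overlaps come from GENCODE M21 and promoters from RefSeq, both on a later build than the files, and were joined by gene and not by coordinate. Some items are not reported here.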

Additional observations from a re-analysis of the deposited data

Results flagged for a closer look

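In 15 groups of 4 values examined, 4 had a line far from the others, and in all 4 it was line 1. For independent groups, chance alone gives about 1 in 20, or 0.75 of 15. The groups examined are not independent, because they share genes and libraries, and the Avil difference is computed from the Avil levels. The share of such groups over all genes tested was not taken. The 4 against 0.75 therefore cannot show an excess in these genes. The level of Avil in line 1 was 326 CPM with WT-USP21, above the 228 to 237 CPM of the other lines, and 143 CPM with ED-USP21, below their 276 to 291 CPM. The log2 difference of Avil in line 1 was 1.19, and that of Alox5 was 0.89, with 23 reads against 13.

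For 4 genes the construct difference in line 1 lay on the other side of 0 from that of lines 2 to 4: Dclk2 (-1.53 in line 1), Avil (1.19), Alox5 (0.89) and Trpm5 (0.0125). The difference between line 1 and lines 2 to 4 was not tested as such. The interaction with the background label without line 2 sets line 1 alone against lines 3 and 4, and by edgeR its adjusted p was 0.0709 for Dclk2, 0.0682 for Avil, 0.584 for Alox5 and 0.9504 for Trpm5.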

How the results depend on the processing

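For the construct comparison without the line (0 genes called), DESeq2 called 60, limma-trend 3 and the fit with the line as replicate block 4, and leaving out 1 line at a time gave 0 to 383, the highest without line 1. For the comparison within lines (4 called), DESeq2 called 407 (315 higher, 92 lower), no filter on low counts gave 58, a mean of at least 5 CPM 0, a robust estimate of the spread 1 and no replicate block 0, and leaving out 1 line gave 0 to 746, the highest without line 1 and 0 without each of the others. The interaction with the background label (0 called) gave 7 by DESeq2 and 0 with any line left out. The levels by background label (0 called) gave 7 by DESeq2 (1 higher, 6 lower), and 0 to 4610 with a line left out, 8 without line 1 and 4610 without line 2. The cause of these changes was not tested. Within lines, the log2 difference over all settings ran from 1.52 to 1.71 for Dclk1 and from -0.22 to -0.11 for Trpm5. That of Dclk2 ran from 0.66 (without line 3) to 1.86 (without line 1). Avil went from 0.07 to -0.28 without line 1 and Alox5 from 0.06 to -0.22, and Alox5 was also below 0 (-0.02) with no replicate block. The Pou2f3 read ratio was 3.01 without line 2 and 0.248 without line 1, against 0.466. With Pou2f3, Dcx, Gfi1b and Il25 at 12 reads or fewer, the depth sets only upper limits for them.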

Other observations

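Among the low tuft cell and mast cell genes, a few had unequal reads between constructs. They were picked out after their counts were seen, and none had enough reads to test the construct difference over all 4 lines. Kit, a receptor of mast cells and progenitors, had 0, 14, 11 and 17 reads with WT-USP21 in lines 1 to 4 against 0, 1, 2 and 3 with ED-USP21. In the fit within lines without line 1, Kit was tested and did not pass (log2 2.57, SE 0.64, edgeR adjusted p = 0.0858). Bmx, a TEC family kinase, went the other way, with 3, 3, 2 and 0 reads against 1, 6, 18 and 12. Gfi1, a relative of Gfi1b, had 23 reads with WT-USP21, of which 21 were in line 1, against 6 with ED-USP21.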
